A study of Mus musculus with 36 samples.

Results

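The proteins of the cytosolic ribosome are encoded by the Rpl genes of the large subunit and the Rps genes of the small subunit. Members were chosen by symbol alone: an Rpl or Rps symbol with a number, together with Rpsa, Rplp0, Rplp1 and Rplp2, leaving out the Rps6k kinases and every symbol marked as a pseudogene. This gave 84 of the 20720 nuclear genes in the count tables, 51 of the large subunit and 33 of the small subunit. The genes were measured in single cells from the left ventricle (infarcted region) of male C57BL/6 mice labelled as 8 weeks old, with SORT-seq, which sorts 1 cell into each well of a plate and counts transcripts by unique molecular identifiers (UMIs). Hearts were taken after sham surgery on day 1, with 4 plates, or day 14, with 8, after ischemia-reperfusion (IR) on day 1, with 9, day 3, with 7, or day 14, with 3, and after myocardial infarction (MI) on day 3, with 5. IR was a 1-hour ligation of the left anterior descending artery that was then released, MI was a lasting ligation of the same artery, and all mice were unmodified in the labels. Day 3 groups were set against the mean of both sham groups, because a day 3 sham was not analysed here.

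As background, each cytosolic ribosome holds a single copy of nearly every ribosomal protein, and cells make these proteins in matched amounts. Their mRNAs begin with a C followed by a run of pyrimidines, the terminal oligopyrimidine (TOP) tract, through which the kinase mTOR sets how well they are translated, and several other mRNAs of the translation machinery, among them that of Eef1a1, share it. A few members have a paralog with a narrower range of tissues. In heart and skeletal muscle Rpl3l stands in for Rpl3 as the uL3 protein near the peptidyl transferase centre, and the elongation factor Eef1a2 in the same way replaces Eef1a1.

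Sequences around annotated transcript starts are shown for some of the members that led the comparisons given further on, for the muscle paralog Rpl3l and for both elongation factor paralogs, because the start carries the TOP tract. RefSeq (GRCm38.p6) had a start for 63 of the 84 members. A tract was counted where a C followed by at least 4 bases that were C or T began within 10 bases of the annotated start, on the transcribed strand only. It was present in 39 of the 63 members (61.9%) and in 9297 of 27025 genes in the same table (34.4%). Each window is 25 bases long and runs 5′ to 3′ on the transcribed strand, and capitals mark the tract from the first C within 10 bases of the annotated start, as far as the window shows it. In Rpl7a and the first start of Rps27l the pyrimidines run on before the capitals, beyond that limit. The first 7 windows hold a tract and the last 4 hold none, and Rps27l and Rpl3l have a start of each kind.
Rpl12, chr2:32961706-32961730, plus strand: ggatccgtCTTTTCggctttcggct
Rps12, chr10:23787185-23787209, minus strand: accgccggCCTTTTCCCCTgccgcc
Rps26, chr10:128626486-128626510, minus strand: cgccggatCCTCTTTCgagtcttgg
Rpl7a, chr2:26910789-26910813, plus strand: acaattccCTCTTCTTTCTTTCTCC
Rps27l, first annotated start, chr9:66946068-66946092, plus strand: tctccactCCTCCCCgccgcctcta
Rpl3l, first annotated start, chr17:24727827-24727851, plus strand: tcatttgaCCTCTggtgcctggtgg
Eef1a1, chr9:78481713-78481737, minus strand: tggctccgCCCTCTTCCCgagggtg
Rps27l, second annotated start, chr9:66946405-66946429, plus strand: gcttcagggtcactaacgggcctcg
Rpl3l, second annotated start, chr17:24732677-24732701, plus strand: acagctacagtgccccaaatgtcct
Rpsa, chr9:120127758-120127782, plus strand: atttaaggacgtcatttccggccgc
Eef1a2, chr2:181156999-181157023, minus strand: tggtctgcgttctcgctcactggtt
A match describes these letters only, and a window without one says nothing of the mRNA in the cell, since annotated starts can be some bases off.

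Nuclear UMIs per plate ranged from 28642 to 4261077, from 2420593 to 4261077 on the 5 MI plates and up to 2798928 on the others, and 3146 of 13824 wells held at least 1000 UMIs. Of the 3127 wells that remained after 19 copies were left out, 2671 fell into clusters that could be named from marker genes, with 1263 cardiomyocyte-like, 533 macrophage-like, 400 endothelial-like and 298 fibroblast-like cells. Of these copies 10 were on day 14 sham replicate 2, which matched wells of IR day 3 replicate 6, a plate that stands against it in the IR day 3 comparison of cardiomyocytes, and 9 were on IR day 1 replicate 9, which matched other plates of its group. Replicates 2 and 7 of day 14 sham shared most of their wells and were counted as 1 plate, named replicate 2, with the mean of both tables. The cell counts above hold both tables, while medians over cells and counts of cells by cluster use replicate 2 alone. The MI plates carry a protocol label of their own, so MI and a library batch cannot be told apart. Some plates must come from a shared mouse, since the mice used were fewer than the plates of MI, and the p values describe the spread between plates. UMIs of all 11 defining markers of the cardiomyocyte-like class were seen in each of its groups, as they also were in MI macrophages. In the class the markers made up 10.4% to 13.6% of UMIs on the day 1 sham plates, 3.96% to 9.14% at IR day 1 and 5.38% to 7.68% in MI. In the cluster that held all the MI cardiomyocytes 8 of the 11 met the naming rule, and in the other cardiomyocyte clusters 10 or 11.

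Members gave 2300876 of 26420996 UMIs in the named cells (8.71%), and the largest counts, in a sum to which the deeper MI plates gave most of the UMIs, came from the laminin receptor and small subunit protein Rpsa (68918 UMIs), the stalk protein Rplp1 (64288), Rpl41 (58659) and Rps12 (54537). Of the 84 members, 71 passed the filter on low counts in cardiomyocytes, endothelial cells, macrophages and fibroblasts alike. Rpl3l passed in cardiomyocytes only, Rpl37 in fibroblasts only, and Rpl7l1 and Rps4y2 (Rps4l in RefSeq) in all but cardiomyocytes. The other 9 were tested in no class: Rpl10l (143 UMIs, 101 of them in 1 well), Rpl22l1 (58), Rpl26 (4), Rpl30 (98), Rpl34 (170), Rpl39l (50), Rplp2 (427), Rps15a (368) and Rps27 (36). Several of these, such as Rpl26, Rpl30 and Rps27, encode core proteins that every ribosome holds. Ribosomal protein genes have many processed pseudogenes of nearly the same sequence, and how reads shared with them were counted is not given in the sources used here, so single members are uncertain to that extent.

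The summed level of the members, as a percent of the UMIs of a class on a plate, was lowest in cardiomyocytes of sham and IR day 14 and in neutrophils of IR day 1, and spanned the widest range over groups in cardiomyocytes. In sham cardiomyocytes it was 1.86%, 2.496%, 2.54% and 1.78% on the day 1 plates and 2.62%, 1.55%, 2.60%, 1.31% and 1.57% on the day 14 plates. It was 4.24% to 6.15% (median 4.96%, 6 plates) at IR day 1, 5.81%, 2.25%, 4.96%, 2.89% and 2.19% at IR day 3, and 2.00%, 1.498% and 1.57% at IR day 14. The 3 MI plates with at least 5 cardiomyocytes gave 12.4%, 10.8% and 12.9%, above every other cardiomyocyte plate, and the 6 plates of IR day 1 lay above all 9 sham plates. In endothelial cells the level was 6.46%, 5.64%, 6.81% and 4.66% in day 1 sham and 9.02%, 11.98%, 9.28%, 8.45% and 8.31% in MI, and all MI plates lay above all sham plates. Fibroblasts gave 5.97%, 7.88% and 6.60% in day 1 sham, 12.2%, 14.0%, 13.9%, 14.3% and 11.6% at IR day 1, 5.44%, 7.15%, 11.3% and 7.36% at IR day 3 and 12.6%, 13.2%, 12.9%, 12.6% and 12.5% in MI. The IR day 1 and MI plates of this class did not overlap with IR day 3. Macrophages gave 8.12% to 9.88% (median 8.63%, 7 plates) at IR day 1, 5.07% to 7.46% (median 6.64%, 6 plates) at IR day 3 and 8.65%, 8.30%, 9.80%, 8.47% and 9.72% in MI, and every IR day 3 plate lay below every plate of IR day 1 and MI. The macrophage plates of day 1 sham gave 8.498%, 8.26% and 5.19% and that of IR day 14 gave 5.601%, so that sham and IR day 14 overlapped with IR day 3. Neutrophils ranged from 1.26% to 4.14% over 9 plates at IR day 1 and from 4.28% to 5.59% over 5 MI plates. The 45S pre-ribosomal RNA row, Rn45s, was left out of every library size. A summed level is a share, so more ribosomal protein mRNA and less of all other mRNA cannot be told apart in it.

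**Figure D1:**
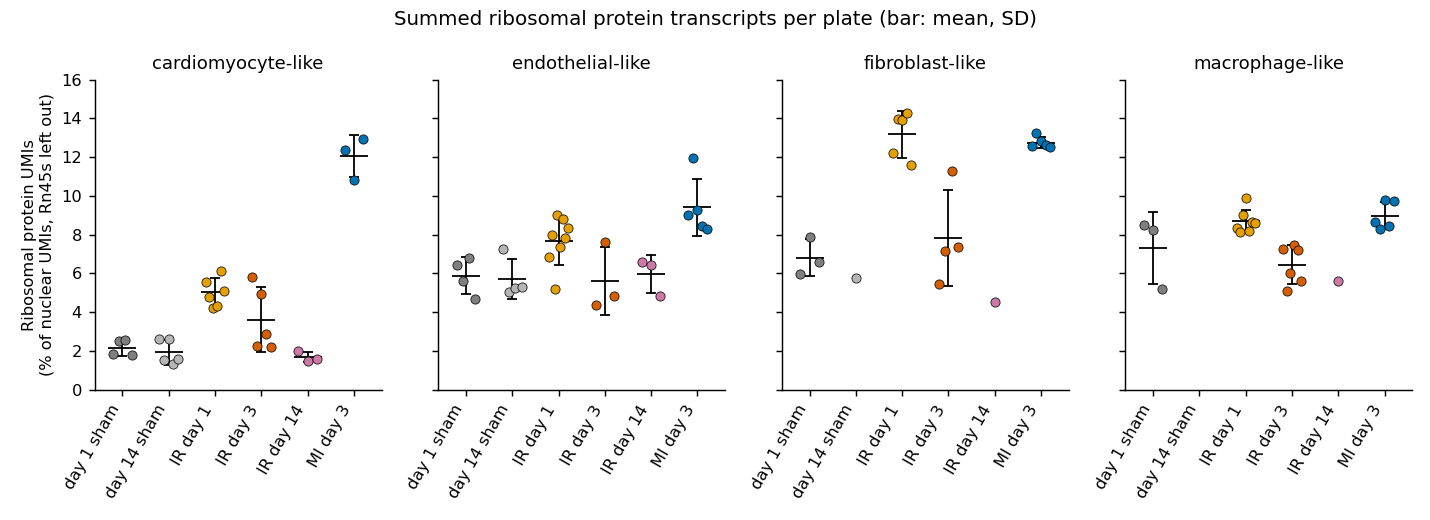
Summed level of the 84 ribosomal protein genes (y axis, percent of nuclear UMIs with Rn45s left out) by group (x axis), with a panel for each cell class. Each point is a plate with at least 5 cells of the class, and bars give the mean and SD over plates. The MI cardiomyocyte plates sit at 10.8% to 12.9%, above the sham cardiomyocyte plates at 1.31% to 2.62%.

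In cardiomyocytes of MI day 3 against sham, nearly all tested ribosomal protein genes rose together and the muscle paralog Rpl3l fell. Of the 72 members tested, 71 rose and 1 fell, where 26.7% of the 2342 genes tested rose and 32.9% fell. The median log2 change was 2.18 over the members and -0.10 over all genes, a difference of 2.28. For 71 members all 3 MI plates lay above all 9 sham plates, as they did for 24.5% of all genes. The large subunit had a median of 2.20 and the small subunit 2.17.

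The largest increases were in Rps27l, Rps12, Rpl12, Rpl32 and Rps26, which are proteins of both subunits. Rps12, a protein at the beak of the small subunit, stood at 197, 242, 413 and 156 UMIs per 1000000 UMIs (CPM) on the day 1 sham plates and 324, 160.1, 262, 0 and 139 on the day 14 sham plates. The MI plates gave 2640.4, 2805 and 2833 CPM. Sham and MI thus did not overlap for Rps12, and its log2 change was 3.19 ± 0.31 (SE, adjusted p = 2.52e-11). Rpl12, a protein at the base of the ribosomal stalk, stood at 145, 152, 168 and 136 CPM in day 1 sham and 294, 160.1, 368, 133 and 148 CPM in day 14 sham. In MI it reached 2232, 2460.3 and 1838 CPM, a log2 change of 3.14 ± 0.29 (SE, adjusted p = 3.72e-12), and again no plates overlapped. Rps27l, a paralog of Rps27 known as a p53 target, ranged from 33.6 to 65.5 CPM in day 1 sham and from 585 to 805 CPM in MI, a log2 change of 3.48 ± 0.37 (SE, adjusted p = 2.28e-10). Its day 14 sham plates ranged from 0 to 74.9 CPM. Rpl32 changed by 2.97 ± 0.33 (log2, SE) and Rps26 by 2.87 ± 0.36.

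The stalk and the other named members moved the same way. Rplp0, the P0 protein that anchors the stalk, changed by 2.42 ± 0.30 (SE, adjusted p = 4.52e-09) on the log2 scale, and Rplp1, its acidic partner, by 2.12 ± 0.31 (SE, adjusted p = 1.53e-07). Rpsa changed by 2.54 ± 0.30 (SE, adjusted p = 1.65e-09). The smallest increase among the members was that of Rps9, a protein at the mRNA entry of the small subunit, at 1.12 ± 0.31 (SE, adjusted p = 0.00215). Of the members whose starts are shown above, Rpl12, Rps12, Rps26 and Rpl7a hold a tract and rose, and Rpsa holds none and rose. Rps27l has starts of both kinds and rose, and Rpl3l has starts of both kinds and fell. Of the 63 members with a RefSeq start 24 hold no tract, Rplp0 among them, and every tested member but Rpl3l rose. A link of the tract with the rise was not tested.

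**Figure D2:**
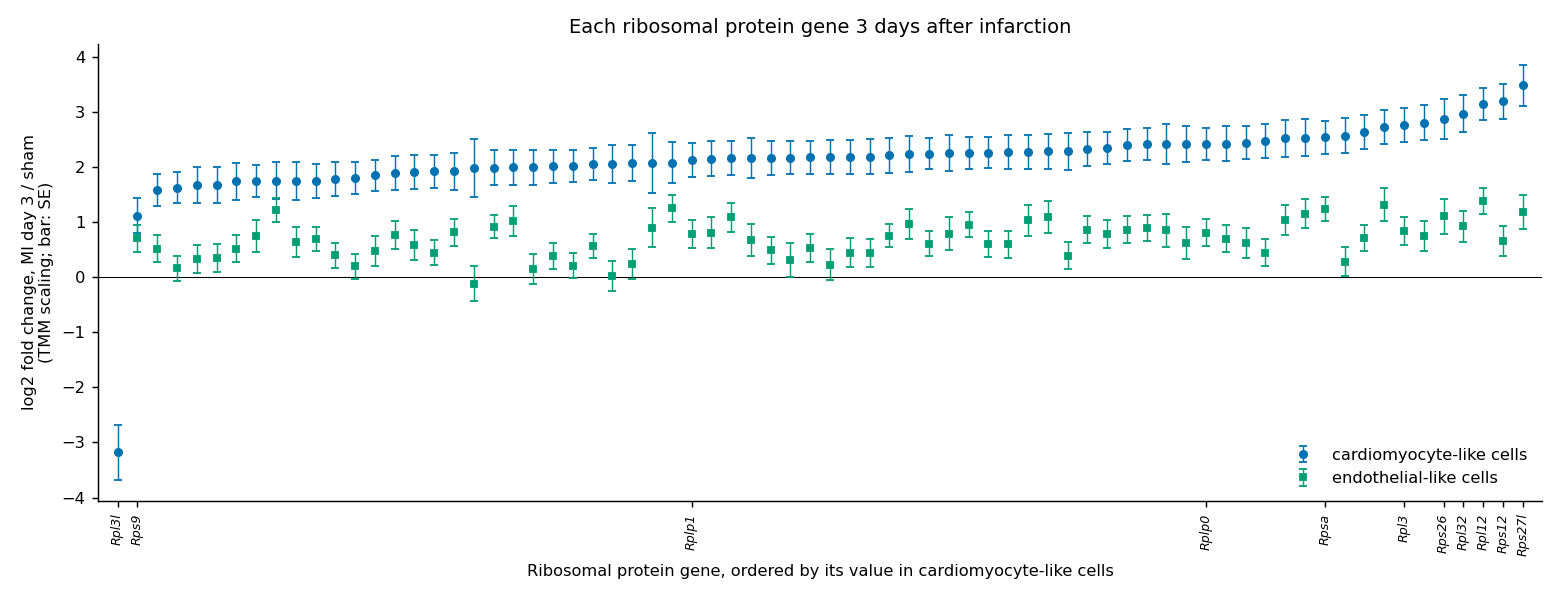
Log2 fold change of each tested ribosomal protein gene, MI day 3 over sham after TMM scaling (y axis, bars are the SE), in cardiomyocytes (circles) and endothelial cells (squares), with genes ordered by their cardiomyocyte value and a few of those named in the text labelled. In cardiomyocytes the 71 genes from Rps9 (1.12) to Rps27l (3.48) lie above 0 and Rpl3l (-3.18) below it.

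Other measures moved with this comparison, and their part in it was not tested. The mitochondrial share of UMIs had plate medians of 75.5% to 85.3% in sham and 2.38% to 21.0% in MI cardiomyocytes. The Rn45s share was 1.67% to 37.1% in sham and 1.20% to 3.18% in MI. The 23 MI cells of the class all lay in 1 cluster, in which their median summed level was 11.3%. In that cluster it was 2.96% for the 18 day 1 sham cells and 4.13% for the 5 day 14 sham cells. It was 4.13% for the 70 IR day 1, 4.19% for the 8 IR day 3 and 2.26% for the 4 IR day 14 cells there. Most sham cells lay in other cardiomyocyte clusters. Depth was measured directly: in sham cells the median summed level was 2.03% below 2000 UMIs (284 cells) and 1.84% above 5000 UMIs (51 cells), and in MI cells it was 7.84% (6 cells) and 12.7% (12 cells). UMIs of marker genes of other cell types made up at most 0.3% in 13 of the 23 MI cells, whose median was 12.6%, and more in the other 10, whose median was 9.50%. With the cells above that limit left out of all groups, 70 members rose and 1 fell.

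The uL3 paralogs moved in opposite directions. Rpl3l (chr17:24727826-24736143) stood at 402, 215, 336 and 311 CPM in day 1 sham, 421, 294, 437, 399.5 and 392 CPM in day 14 sham and 27.2, 92.0 and 40.9 CPM in MI. All MI plates were below all sham plates. It fell by 3.18 ± 0.50 (SE, adjusted p = 7.35e-07) on the log2 scale, and the MI values rest on 9 UMIs in all. Rpl3 (chr15:80077781-80083406) stood at 131, 236, 216 and 204 CPM in day 1 sham, 193, 53.4, 149.7, 0 and 87.1 CPM in day 14 sham and 1484, 1219 and 1429.9 CPM in MI, a log2 change of 2.77 ± 0.31 (SE, adjusted p = 6.17e-10). The MI plates were above all sham plates for Rpl3. Rpl3l thus gave 75.4%, 47.7%, 60.9% and 60.4% of the UMIs of the pair on the day 1 sham plates and 68.6%, 84.6%, 74.5%, 100% and 81.8% on those of day 14. The share was 8.33% to 50% (median 29.1%, 6 plates) at IR day 1, 0%, 45.8%, 18.2%, 52.2% and 36.2% at IR day 3 and 64.9%, 74.0% and 58.1% at IR day 14. In MI it was 1.80%, 7.02% and 2.78%, or 9 of 276 UMIs over the plates. The MI plates did not overlap with sham. All 5 IR day 3 plates lay below the day 14 sham plates, and 1 of them, at 52.2%, overlapped with day 1 sham. The plate at 0% rests on 0 of 2 UMIs, which allows a share of up to 84.2% (exact 95% binomial interval, counting error only), and the plate at 100% on 3 UMIs.

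**Figure D3:**
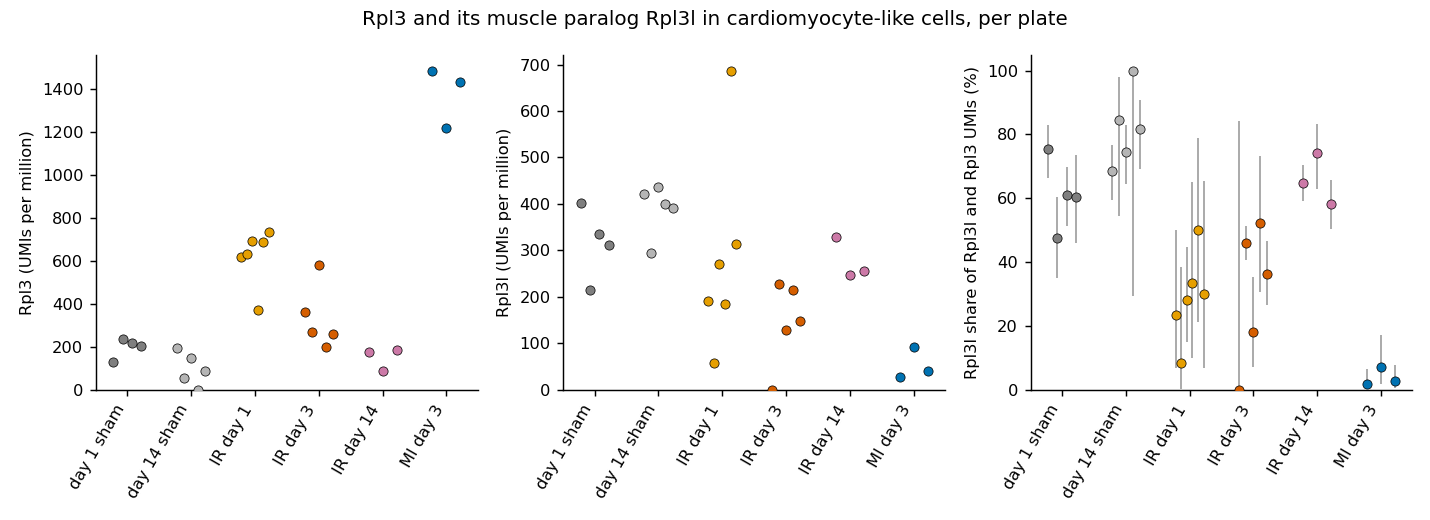
Rpl3 (left) and Rpl3l (middle) in CPM, and the percent of the UMIs of both that are from Rpl3l (right), in cardiomyocytes by group (x axis). Each point is a plate with at least 5 cells of the class, and bars in the right panel are exact 95% binomial intervals, which cover counting error only. The MI plates lie at 1.80% to 7.02% and the sham plates at 47.7% to 100%.

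The elongation factor pair was not a mirror of the uL3 pair. Eef1a1, the broadly expressed form of the factor that brings aminoacyl-tRNA to the ribosome, stood at 74.9, 201, 293 and 233 CPM in day 1 sham and 1143, 1541 and 1429.9 CPM in MI, a log2 change of 2.46 ± 0.38 (SE, adjusted p = 4.70e-07). Its muscle form Eef1a2 stood at 1072, 1171, 1398 and 1594 CPM in day 1 sham and 1170.5, 1081 and 994 CPM in MI, and its log2 difference of -0.58 ± 0.36 (SE, adjusted p = 0.167) did not pass the test. Of other gene lists, to be read against the 26.7% of all genes that rose and 32.9% that fell, among the elongation factors 4 of 7 rose and 0 fell in MI. Among the other genes with a known TOP mRNA 10 of 15 rose and 0 fell, with Tpt1, the translationally controlled tumour protein, at 2.22 ± 0.32 (log2, SE), Gnb2l1, the scaffold RACK1 of the small subunit, at 2.01 ± 0.32, and Fau, which encodes a ubiquitin-like protein fused to a small subunit protein, at 2.03 ± 0.34. Among the ribosome biogenesis genes 2 of 6 rose and 0 fell, a share near that of all genes, with a median of 0.25. The nucleolar proteins Ncl and Npm1 did not pass, at -0.66 ± 0.44 (SE, adjusted p = 0.193) and 0.69 ± 0.33 (SE, adjusted p = 0.0663). Among the mitochondrial ribosomal protein genes 14 of 38 rose and 0 fell, where the share that rose was again not far from that of all genes.

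In reperfused hearts fewer cardiomyocyte members passed the test than in MI, and the difference between the injuries was not itself tested. At IR day 1 against day 1 sham, a comparison added after the data had been seen, 20 of 72 members rose and 0 fell, where 9.01% of all genes rose and 16.8% fell. The member median was 0.71 and that of all genes -0.32, a difference of 1.03. For 27 members the 6 IR plates lay above the 4 sham plates, as for 5.12% of all genes. Rpl12 stood at 475 to 1200.2 (median 822, 6 plates) CPM, above every day 1 sham plate, and changed by 1.92 ± 0.35 (SE, adjusted p = 8.21e-05) on the log2 scale. Rps12 changed by 1.63 ± 0.37 (SE, adjusted p = 8.52e-04), Rpl32 by 1.55 ± 0.44 and Rps27l by 1.70 ± 0.54. The call of Rps27l was lost without IR day 1 replicate 2 (adjusted p = 0.0592). Rpl3 stood at 369 to 732 (median 658, 6 plates) CPM and changed by 1.25 ± 0.37 (SE, adjusted p = 0.0096), and Rpl3l at 57.2 to 687 (median 231, 6 plates) CPM differed by -0.74 ± 0.39 (SE, adjusted p = 0.159) without passing. The stalk members Rplp0 and Rplp1 and also Rpsa rose, by 1.22 ± 0.34, 1.08 ± 0.34 and 1.15 ± 0.34. The call of Rplp1 was lost without day 1 sham replicate 1 (adjusted p = 0.0722) or replicate 4 (adjusted p = 0.0554). Of the other lists, among elongation factors 3 of 7 rose and 0 fell, among the TOP genes 2 of 15 rose and 0 fell, among the biogenesis genes 2 of 6 rose and 0 fell and among the mitochondrial ribosomal proteins 0 of 38 rose and 1 fell.

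The cells of both groups lay mostly in different clusters, with 86.4% of the IR day 1 cells but 7.17% of the day 1 sham cells in the cluster that held the MI cells, and 53.8% of the sham cells in another. Within the former the median summed level was 4.13% and 2.96%, and the part of the clusters in this result was not tested. The count at IR day 1 depended on the processing, and the share of all genes that passed was not counted for the other settings. It was 47 with RLE scaling (members 1.04, all genes -0.02), 50 in DESeq2, 2 in wells of at least 2000 UMIs and 0 without the filter on low counts. With the copied wells kept, or with a correction for UMI collisions, it was 42, with an all-gene median of -0.02 under the correction. It was 2 with at least 10 cells per plate. Without day 1 sham replicate 1 it was 12. The IR day 1 plates held 63.3% to 91.6% mitochondrial UMIs and 20.6% to 64.1% Rn45s, and their part in the result was not tested.

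At IR day 3 against sham, 1 of 72 members rose and 1 fell, shares below the 5.21% and near the 2.01% of all genes, and the member median was 0.29. The riser was Rpsa at 0.99 ± 0.28 (SE, adjusted p = 0.0168) on the log2 scale, and the member that fell was Rpl3l, which fell by 1.11 ± 0.31 (SE, adjusted p = 0.0157). Rpl3l stood at 0, 228, 129, 215 and 148 CPM on the IR day 3 plates, which overlapped with sham. Both calls were lost without IR day 3 replicate 5 (adjusted p = 0.0949 for Rpsa and 0.0507 for Rpl3l), and that of Rpl3l also without replicate 7 (0.0752, an adjusted p). The count of calls was 0 without replicate 5, 1 without replicate 7, 6 without replicate 6, and 4 without day 14 sham replicate 2. Without the filter on low counts neither passed (adjusted p = 0.249 and 0.155). Eef1a1 rose by 1.42 ± 0.35 (adjusted p = 0.0065), a call that was lost in wells of at least 2000 UMIs (adjusted p = 0.0626) and with the replicate number as a block (adjusted p = 0.0914), under which Rpsa and Rpl3l were lost as well (adjusted p = 0.0968 and 0.179). At IR day 14 against day 14 sham, 0 of 72 members passed in edgeR and 0 in DESeq2, with 2 members at an unadjusted p under 0.05 and 0.0854% of all genes called. The member median was -0.18 and that of all genes 0.05. The comparisons of IR day 1, IR day 3 and MI share sham plates. Of the IR day 3 cardiomyocytes 52.2% lay in a cluster that held 3.59% of the day 1 sham and 2.76% of the day 14 sham cells. Another cluster held 18.9%, 53.8% and 58.5% of them. Markers of other classes had plate medians of 0.0897% to 0.655% at IR day 3 and 0% to 0.184% in sham, which overlapped. The part of the clusters and the markers in the IR day 3 result was not tested.

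Endothelial cells also had higher ribosomal protein mRNA in MI, and none of the members fell. For MI day 3 against sham, 40 of 73 members rose and 0 fell, where 17.3% of all genes rose and 18.2% fell, with a member median of 0.69 and an all-gene median of 0.03. The 5 MI plates lay above all 8 sham plates for 32 members, as for 7.46% of all genes. Rpl12 led, at 507, 558, 548 and 267 CPM in day 1 sham, 681, 625.5, 523 and 641 CPM in day 14 sham and 1503, 1934, 1572, 1035 and 1145 CPM in MI, a log2 change of 1.39 ± 0.24 (SE, adjusted p = 1.77e-05). Rps2, a small subunit protein at the mRNA entry, changed by 1.32 ± 0.29, Rpl7a by 1.25 ± 0.24, Rpsa by 1.24 ± 0.22 and Rpl10a by 1.22 ± 0.22. Eef1a1 rose by 1.06 ± 0.27, and among the biogenesis genes 7 of 17 rose and 0 fell, with Ncl at 1.29 ± 0.26. Npm1, from the list of TOP genes, rose by 1.56 ± 0.28. Eef1a2 fell (adjusted p = 1.06e-10), from 207, 329, 252 and 356 CPM in day 1 sham to 2.44, 0, 0, 12.5 and 0 CPM in MI. Cardiomyocyte markers made up 1.49% to 2.25% of UMIs in day 1 sham, 1.52% to 4.31% in day 14 sham and 0.00487% to 0.0305% in MI endothelial cells, and Rpl3l, a muscle gene, ranged from 27.5 to 79.1 CPM in day 1 sham and was at 0 in MI. Most endothelial cells of sham lay in 1 cluster (100 of day 1 and 68 of day 14), and 54 of those of MI in another, in which 5 day 1 sham cells had a median summed level of 10.6%, 3 day 14 sham cells 7.67% and the MI cells 8.55%. The mitochondrial share of endothelial UMIs had plate medians of 31.4% to 51.3% in sham and 9.04% to 15.3% in MI, which did not overlap, and the median UMIs per cell ran from 2063 to 3843 and from 3591 to 27036.5. Fibroblast markers made up 0.0906% to 0.265% of endothelial UMIs in MI and 0.0284% to 0.0840% in sham. Endothelial markers made up 0.677% to 1.10% and 1.21% to 2.22%, and neither list overlapped between MI and sham. The part of the markers, the clusters, the mitochondrial share and the depth in the result of MI was not tested. Without MI replicate 2 the count was 22, and against day 1 sham alone it was also 22.

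At IR day 1 against day 1 sham, 7 of 73 endothelial members rose and 0 fell, against 5.84% of all genes that rose and 8.72% that fell. The member median was 0.32 and that of all genes -0.03. Among the members that rose were Rps2 (1.30 ± 0.34, log2 and SE), Rpl12 (1.30 ± 0.28), Rpsa (1.19 ± 0.26) and Rpl7a (0.96 ± 0.28). Ncl rose by 1.17 ± 0.31, while Tpt1 fell by 0.85 ± 0.26 and Eef1a2 by 2.34 ± 0.44, with 3 of the 8 IR day 1 plates at 0 for Eef1a2. The call of Rpl7a was lost without day 1 sham replicate 4 (adjusted p = 0.0804), and that of Tpt1 without replicate 1 (adjusted p = 0.0667) or replicate 3 (adjusted p = 0.0580). Cardiomyocyte markers made up 0.0341% to 1.57% of UMIs here. Of the IR day 1 endothelial cells 48.6% lay in the cluster that held most of those of MI, against 4.76% of day 1 sham, and the median summed level there was 8.79% in IR and 10.6% in sham cells. In the cluster that held most sham cells it was 5.82% and 5.05%. The part of the clusters in this result was not tested. With cells above 0.3% of markers of other classes left out, 0 members passed, and the medians were -0.68 for members and 0.72 for all genes. Without day 1 sham replicate 2 or 4 the count was 4. At IR day 14 against day 14 sham, 0 of 73 members passed in edgeR and 0 in DESeq2, with 1 at an unadjusted p under 0.05 and 0% of all genes called.

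The change from sham to MI was larger in cardiomyocytes than in endothelial cells for many members. In a test of that difference, added after the data had been seen, 41 of 73 members had a larger change in cardiomyocytes and 0 a smaller one, where 8.85% of all genes had a larger one and 14.9% a smaller one. The median difference was 1.25 over the members and -0.38 over all genes. Among the members that passed it was largest for Rps12 (2.24 ± 0.43, log2 and SE), Rps27l (2.13 ± 0.53), Rpl17 (1.89 ± 0.42), Rpl32 (1.82 ± 0.45) and Rps28 (1.73 ± 0.44). Rpl3l did not pass, and since it was at 0 UMIs on all 5 MI endothelial plates no difference is given for it. Tpt1 differed the same way (2.33 ± 0.44), and the nucleolar genes the other way: Ncl by -2.15 ± 0.53 and Npm1 by -1.18 ± 0.45. The call of Ncl was lost without MI replicate 3 (-1.40, adjusted p = 0.0898). That of Npm1 was lost in each fit that left out 1 plate but the one without day 14 sham replicate 6, and with MI replicate 2 or 3 left out its difference was -0.54 (adjusted p = 0.582) or -0.75 (adjusted p = 0.39). Among the biogenesis genes 0 of 18 had a larger and 4 a smaller change in cardiomyocytes. The count was 25 with RLE scaling, 64 with Rn45s kept, 13 without the filter on low counts, 14 when the members were used in the clustering and 27 against day 14 sham alone.

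**Figure D4:**
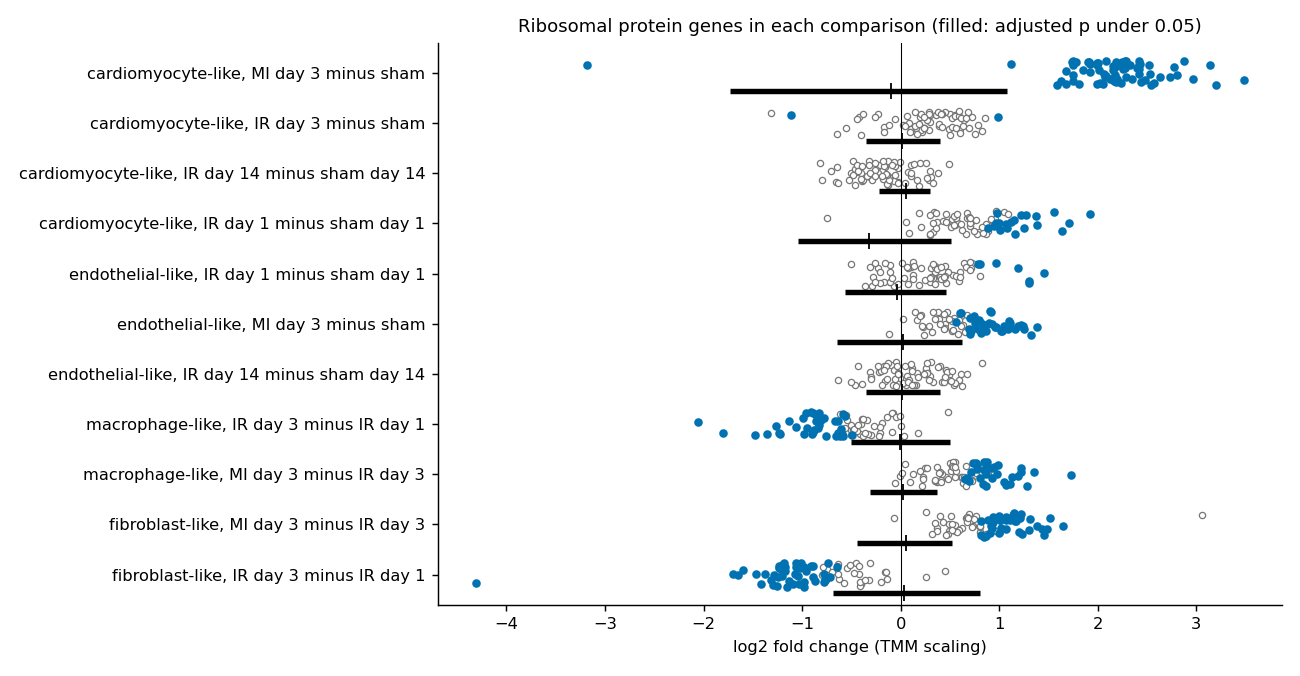
Log2 fold change after TMM scaling (x axis) of each tested ribosomal protein gene (points, filled where the adjusted p in edgeR was under 0.05) in each comparison within a class (y axis); the black bar under each set spans the quartiles of all genes tested, with a tick at their median. For MI against sham in cardiomyocytes the members have a median of 2.18 and all genes one of -0.10.

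In macrophages ribosomal protein genes were lower at IR day 3 than at IR day 1. Of 73 members 38 fell and 0 rose, where 13.7% of all genes fell and 11.4% rose, with a member median of -0.59 and an all-gene median of -0.01. For 14 members all 6 IR day 3 plates lay below all 7 IR day 1 plates, as for 2.66% of all genes. Rpl31, a large subunit protein at the exit tunnel, stood at 50.1 to 262 (median 179.6, 7 plates) CPM at day 1 and 0 to 77.3 (median 45.1, 6 plates) CPM at day 3, and fell by 2.06 ± 0.32 (SE, adjusted p = 2.43e-05) on the log2 scale. Rpl7a, Rpl36 and Rpl8 fell by 1.48 ± 0.24, 1.35 ± 0.23 and 1.27 ± 0.24. Members did not all move alike: Rpsa differed by 0.48 ± 0.22 (SE, adjusted p = 0.115) and Rpl7 by 0.04 ± 0.20 (SE, adjusted p = 0.925), and neither passed. Among the biogenesis genes 0 of 19 rose and 12 fell, with a median of -1.35. Among the TOP genes 0 of 16 rose and 7 fell, and among the mitochondrial ribosomal proteins 2 of 39 rose and 5 fell.

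The macrophage clusters differed between these days. One cluster held 76 cells of IR day 1 and 19 of IR day 3, with median summed levels of 8.80% and 6.51%, and another held 5 and 141 cells, with 7.61% and 5.91%. Macrophage markers made up 0.594% to 1.55% of macrophage UMIs at IR day 1 and 1.90% to 2.69% at IR day 3, which did not overlap. Cardiomyocyte markers made up 0.0105% to 0.119% and 0.0885% to 0.33%, which did. Fibroblast markers made up 0.00106% to 0.0277% and 0.0281% to 0.151%, which did not. The part of the clusters and the markers in the result was not tested. When the members were used in the clustering 2 members were called, in wells of at least 2000 UMIs 25 were, and without IR day 3 replicate 7 it was 23. MI day 3 macrophages were then set against IR day 3. Of 73 members 31 rose and 0 fell, where 6.19% of all genes rose and 4.48% fell, with a member median of 0.65 and an all-gene median of 0.03. Rps26 stood at 0 to 715 (median 338, 6 plates) CPM at IR day 3 and 873, 888, 1001, 935 and 1050.0 CPM in MI, a log2 change of 1.36 ± 0.33 (SE, adjusted p = 0.0077). Rpl7a and Rps23 changed by 1.28 ± 0.25 and 1.22 ± 0.26. Rpl31 changed by 1.22 ± 0.30, a call that was lost without IR day 3 replicate 7 (adjusted p = 0.0848). Among the biogenesis genes 8 of 19 rose and 0 fell. The count was 15 without IR day 3 replicate 4, 10 without replicate 7, and with MI replicate 3 or 5 left out it was 14 or 19. In MI the macrophage markers made up 1.20% to 1.66% of UMIs and the cardiomyocyte markers 0.0163% to 0.0866%, both below every IR day 3 plate. Neutrophil markers made up 0.0354% to 0.0972% in MI and 0.00885% to 0.0271% at IR day 3, which did not overlap. Of the 2 clusters above, the one of most IR day 1 cells also held 86.2% of the MI macrophages (207 cells, median summed level 8.67%) and 10.7% of those of IR day 3. The other cluster held 3.33% (8 cells, 8.06%) and 79.7%. The median UMIs per cell ran from 12489 to 31067 in MI and from 1112 to 12735 at IR day 3. The mitochondrial share had plate medians of 6.08% to 14.7% and 9.46% to 29.1%, and both measures overlapped. In wells of at least 2000 UMIs the count was lower, as given at the end. The part of the markers, the clusters, the depth and the mitochondrial share in the result was not tested. Both macrophage comparisons use the same IR day 3 plates.

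In fibroblasts, too, ribosomal protein genes were lower at IR day 3 than at IR day 1, in a comparison added after the data had been seen. Of 74 members 46 fell and 0 rose, where 11.3% of all genes fell and 12.2% rose, with a member median of -0.90 and an all-gene median of 0.03. For 38 members the 4 IR day 3 plates lay below the 5 IR day 1 plates, as for 8.2% of all genes. Rpl7a, a large subunit protein, stood at 1261, 1676, 1156, 1541 and 1220.4 CPM at day 1 and 194, 377, 858 and 275 CPM at day 3, and fell by 1.70 ± 0.32 (SE, adjusted p = 8.38e-04) on the log2 scale. Rpl31 and Rpl36 fell by 1.65 ± 0.32 and 1.47 ± 0.28. Rpl37 also passed, but on 32 UMIs at day 1 and 1 UMI at day 3, too few for a fold. Rpsa differed by 0.26 ± 0.24 (SE, adjusted p = 0.474) and did not pass. Among the biogenesis genes 0 of 27 rose and 23 fell, with a median of -2.01, and Ncl fell by 1.69 ± 0.32. Npm1, from the list of TOP genes, fell by 1.17 ± 0.36. Its call was lost without IR day 1 replicate 7 (-0.78, adjusted p = 0.0935) or IR day 3 replicate 3 (adjusted p = 0.0635) or 4 (adjusted p = 0.0727). Among the TOP genes 0 of 16 rose and 9 fell, and among the mitochondrial ribosomal proteins 0 of 50 rose and 8 fell. The fibroblast markers made up 0.611% to 2.46% of fibroblast UMIs at IR day 1 and 6.84% to 10.4% at IR day 3, and the cardiomyocyte markers 0.00636% to 0.0566% and 0.17% to 0.73%. Neither range overlapped between the days. The median UMIs per cell ran from 8597 to 16535.5 at IR day 1 and from 1730 to 9057 at IR day 3, which did overlap. The cluster that held most injured fibroblasts had 80.8% of the IR day 1 and 63.2% of the IR day 3 cells. The part of the markers, the depth and the clusters in the result was not tested.

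MI day 3 fibroblasts lay above those of IR day 3. Of 74 members 36 rose and 0 fell, where 4.1% of all genes rose and 5.15% fell, with a member median of 0.87 and an all-gene median of 0.06. The 5 MI plates lay above the 4 IR day 3 plates for 50 members, as for 10.3% of all genes. Rps21 stood at 345, 614, 732 and 461 CPM at IR day 3 and 1312, 1640.0, 1565, 1527 and 1448 CPM in MI, a log2 change of 1.49 ± 0.28 (SE, adjusted p = 0.00158). Rps26 changed by 1.52 ± 0.38, and its call was lost without IR day 3 replicate 7 (adjusted p = 0.0592). Rpl7a and Rps23 changed by 1.46 ± 0.32 and 1.44 ± 0.32. Among the biogenesis genes 10 of 27 rose and 0 fell. In the cluster that held most injured fibroblasts the median summed level of cells was 13.5% at IR day 1 (42 cells), 6.22% at IR day 3 (36 cells) and 12.5% in MI (135 cells). The mitochondrial share had plate medians of 6.57% to 10.7% in MI and 13.4% to 24.7% at IR day 3, and the median UMIs per cell ran from 34722 to 50724 and from 1730.0 to 9057. Fibroblast markers made up 3.05% to 3.73% of UMIs in MI and cardiomyocyte markers 0.00286% to 0.0221%, both below every IR day 3 plate. None of these 4 measures overlapped between the groups, and their part in the result was not tested. The count was 20, 13 and 15 without IR day 3 replicates 3, 4 and 7, and 22, 19, 17, 19 and 20 without MI replicates 1 to 5. Both fibroblast comparisons use the same IR day 3 plates, and with cells above 0.3% of markers of other classes left out 2 members were called for MI and 28 for day 3 against day 1.

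**Figure D5:**
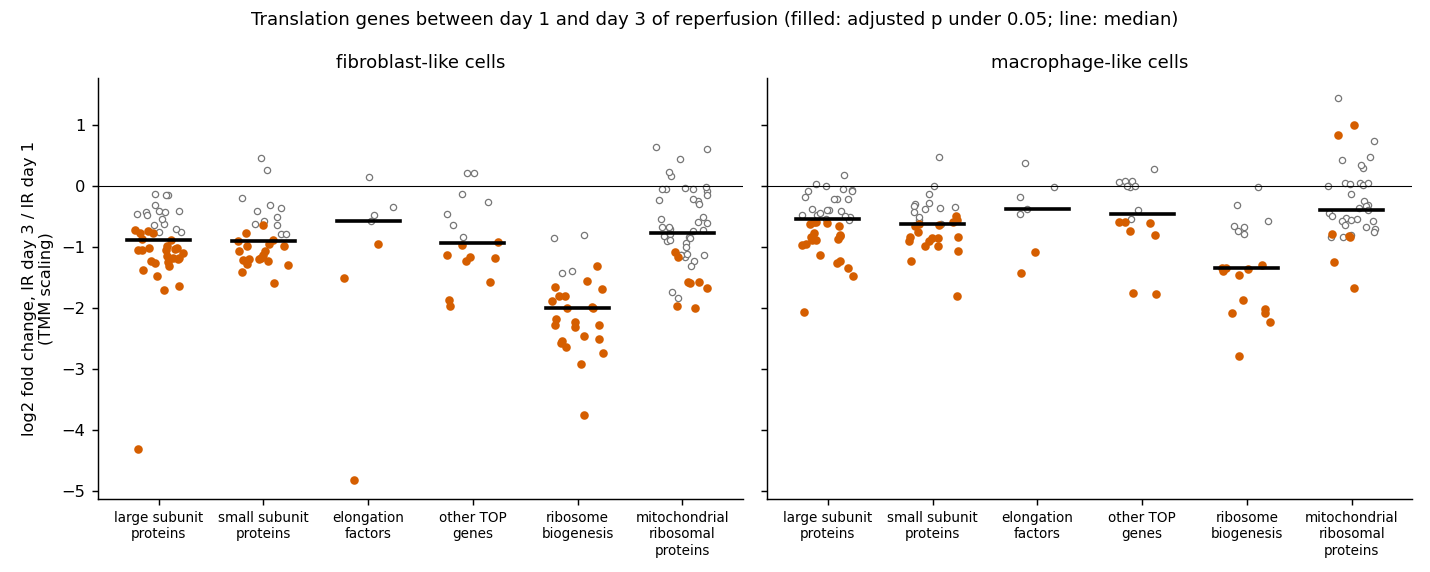
Log2 fold change, IR day 3 over IR day 1 after TMM scaling (y axis), of the genes of each translation list (x axis) in fibroblasts and macrophages; points are genes, filled where the adjusted p in edgeR was under 0.05, and lines are medians. The ribosome biogenesis genes have medians of -2.01 in fibroblasts and -1.35 in macrophages, and the ribosomal protein genes of both subunits lie mostly below 0.

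Between classes on the same plates, with the plate as a block, endothelial cells had a higher level than cardiomyocytes for 62 of 73 members and a lower one for 1, where 37.4% of all genes were higher and 32.1% lower, with a member median of 0.53 and an all-gene median of 0.10. The largest differences were in Rps12 (1.17 ± 0.18, log2 and SE), Rps21 (1.11 ± 0.14), Rps20 (1.10 ± 0.15), Rps19 (1.08 ± 0.14) and Rpl31 (1.07 ± 0.22). Macrophages were higher than cardiomyocytes for 68 of 73 members and lower for 1, where 37.6% of all genes were higher and 35.4% lower, with a member median of 0.80. Rpl39, at the exit tunnel, led with 1.53 ± 0.18, before Rps29 (1.44 ± 0.16), Rps19 (1.37 ± 0.15), Rpl37a (1.32 ± 0.15) and Rps23 (1.31 ± 0.16). The member that was lower was Rpl3l in both comparisons, by -3.15 ± 0.24 in endothelial cells and -5.11 ± 0.34 in macrophages, a fitted value that rests on few UMIs in macrophages, since most of their plates were at 0 for Rpl3l. The elongation factor pair divided likewise: Eef1a1 differed by 2.20 ± 0.17 and 2.46 ± 0.18, and Eef1a2 by -3.41 ± 0.29 and -6.02 ± 0.37. Of the mitochondrial ribosomal protein genes 13 of 15 were lower in endothelial cells and 11 of 15 in macrophages. These are differences over all groups, and the plates of both classes overlapped for all 73 members in each comparison. On MI replicates 2, 3 and 5, the 3 MI plates with cardiomyocytes in these tests, the summed level ran the other way, at 12.4%, 10.8% and 12.9% in cardiomyocytes, 11.98%, 9.28% and 8.31% in endothelial cells and 8.30%, 9.80% and 9.72% in macrophages. Both comparisons share the cardiomyocyte plates.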

How the data were processed

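SORT-seq libraries of 36 plates with 384 wells each were analysed, from sham, ischemia-reperfusion (IR) and myocardial infarction (MI) hearts. The authors deposited UMI counts per gene and well, mapped per the labels with BWA (version not given in the sources used here) to GRCm38/mm10. All 174110208 deposited values were whole counts, and UMIs of 6 bases cap a count at 4096. At most 1397 UMIs of a member were counted in 1 well. Mitochondrial genes, spike-ins and Rn45s were left out of library sizes. Groups came from the labels, and each plate was 1 replicate. Nuclear UMIs per plate ranged from 28642 to 4261077.

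Wells of at least 1000 UMIs were clustered without the members (scanpy 1.11.5, leidenalg 0.10.2, 2000 variable genes, 30 principal components, 15 neighbours, resolution 1, seed 1) and named "like" a class from marker lists, where markers had to be 2 times higher than the mean over the other clusters. That reference was changed after MI cardiomyocytes had gone unnamed and before member values were seen. Doublets were not called. Wells that copied a deeper plate were left out, and replicates 2 and 7 of day 14 sham, which share most wells, were counted as 1 plate (the mean of both, rounded to whole counts). UMIs were summed per plate and class with at least 5 cells, and fitted for all groups of a class at once with edgeR 4.0.16 (R 4.3.3, filterByExpr, TMM, quasi-likelihood F test, Benjamini-Hochberg over all genes, threshold 0.05), so groups share 1 estimate of the spread. Class comparisons and the comparison of cardiomyocyte with endothelial changes had the plate as a block. DESeq2 1.42.0 was an alternative. CPM values are before TMM scaling.

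The members and lists were chosen with earlier results of these data known. Named in each comparison were the 5 members with the largest change in each direction among those called, paralogs, stalk members, Rpsa, Rps27a and a fixed set of other translation genes, of which those that passed or bear on a pair are given. A few genes that this rule names are not reported here. Rps9 was named after its values were seen. The comparisons of IR day 1 cardiomyocytes, of IR day 3 with IR day 1 fibroblasts and of the MI change between classes, and the setting without cells holding over 0.3% of markers of other classes (at least 2 cells per plate), were added after the data had been seen. On data simulated for MI against sham cardiomyocytes (2290 genes), 15.3% of genes changed by 1 on the log2 scale and 81.2% of those changed by 2 were recovered, and 3.5% of calls were false. For IR day 3 against IR day 1 macrophages (4087 genes) these were 45.5%, 95.2% and 7.3%. The simulated MI data had 85 genes changed by 1 and 85 by 2, some up and some down. In the real MI comparison 59.6% of genes passed and nearly all members moved 1 way, a setting that these rates do not describe. Start sequences are from RefSeq (GRCm38.p6).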

Additional observations from a re-analysis of the deposited data

Results flagged for a closer look

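Of 28 runs of Dixon's test on groups of 4 to 10 plates, 3 found a plate far from the others, where chance gives about 1 in 20 runs. The cardiomyocyte groups were tested on several linked measures, so the runs are not independent. In endothelial cells of MI, replicate 2 had a summed ribosomal protein level of 11.98%, with the other 4 plates at 8.31% to 9.28%. In endothelial cells of day 14 sham, replicate 1 had 7.27%, with the others at 5.07% to 5.33%. In cardiomyocytes of IR day 1, replicate 4 had the lowest level of Rpl3, at 369 CPM.

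The change from sham to MI was larger in cardiomyocytes than in endothelial cells for 41 members by a test of the difference itself (edgeR, adjusted p under 0.05), and smaller for 0. That count ran from 13 to 64 over the other settings. Of the 5 pseudogene symbols left out of the members, 2 were higher in injured than in sham cells, Rps15a-ps4 at 2.76 against 1.21 CPM and Rps15a-ps6 at 2.67 against 2.01. They rest on 3 and 5 UMIs in sham cells, and the differences were not tested. The other 3 pseudogene symbols were lower in injured cells.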

How the results depend on the processing

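For settings other than the main fit, here and above, the share of all genes that passed was not counted, so these counts lack their own background. The count of called members in MI against sham cardiomyocytes was 71 higher and 1 lower in every setting run but 1. In that setting cells with over 0.3% of markers of other classes were left out (70 and 1). No fit with at least 10 cells per plate was possible. Leaving out 1 plate gave 72 calls in MI cardiomyocytes, 0 to 6 at IR day 3, 0 at IR day 14 and 12 to 21 at IR day 1. In endothelial cells it gave 22 to 44 for MI, 4 to 8 for IR day 1 and 0 for IR day 14. In macrophages it gave 23 to 41 for IR day 3 against day 1 and 10 to 37 for MI, and in fibroblasts 34 to 51 and 13 to 46. It gave 50 to 69 for endothelial cells and 53 to 72 for macrophages against cardiomyocytes, and 31 to 60 for the difference between classes. No pairing of plates by replicate number was seen: over 14 pairs of groups the median correlation of same-numbered plates ran from -0.05 to 0.08. No pair of groups had all of them over 0.1. Several pairs of groups shared only 2 numbers, too few to show pairing, so it is not excluded. With the replicate block the counts were 0 for IR day 3 and 13 for IR day 1 cardiomyocytes, 4 for IR day 1 endothelial cells, 14 for MI macrophages, and 2 for MI and 8 for IR day 3 fibroblasts, and in no other count did the block move the value by over 1.5 times. For IR day 3 cardiomyocytes the count was 6 with RLE scaling, 8 in DESeq2, 0 without a filter, 6 with the collision correction, 5 with copied wells kept, and 1 each with wells of at least 2000 UMIs, day 1 sham alone and day 14 sham alone. For IR day 14 it was 1 without a filter. For IR day 1 it was 47 with RLE scaling, 50 in DESeq2, 0 without a filter, 42 with the collision correction or copied wells, and 2 with at least 10 cells or 2000 UMIs. For IR day 1 endothelial cells it was 2 without a filter, 14 in DESeq2, 11 with at least 10 cells and 0 without cells holding markers of other classes, where Rps2 (-0.85), Rpl12 (-0.28), Rpl7a (-1.05) and Ncl (-1.72) turned negative. For MI endothelial cells it was 22 against day 1 sham alone. For IR day 3 macrophages it was 25 at 2000 UMIs and 2 when clustering used the members, and for MI macrophages 47 with at least 10 cells and 20 at 2000 UMIs. For MI fibroblasts it was 23 with RLE scaling, 60 with at least 10 cells and 2 without cells holding other markers, and for IR day 3 fibroblasts 13 and 28 under the last pair, where the 13 rest on 1 IR day 1 plate, assumed to vary like the other groups. For the difference between classes it was 25 with RLE scaling, 13 without a filter, 64 with Rn45s kept, 14 when clustering used the members and 27 against day 14 sham alone. Between classes, Eef2 turned from negative to 0.14 with RLE scaling and 0.17 in DESeq2, and Npm1 to -0.015 on sham plates alone. The summed level moved beyond 1 SD for IR day 1 cardiomyocytes (4.22% at 2000 UMIs, 4.28% with at least 10 cells, 3.19% with Rn45s kept), IR day 14 and day 1 sham cardiomyocytes with Rn45s kept (1.38% and 1.61%), IR day 3 endothelial cells with at least 10 cells (7.62%, the value of the 1 plate left) and IR day 1 macrophages when clustering used the members (8.05%). The cause of these shifts was not tested. The MI cardiomyocyte values rest on 17 cells of 3 plates.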
